A study of Rattus norvegicus with 3 samples.

Results

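The loci described here are the abundant protein-coding loci without a proper gene name in rat extracellular vesicle RNA. They were the nuclear rows typed as protein-coding whose names start with LOC, AABR, RGD, AC1 or ENSRNOG and whose mean over the libraries was at least 30 FPKM (fragments scaled to transcript length and to the library's total). The rule took 98 of the 29684 rows in the table, out of 3749 nuclear protein-coding rows with such names and 22745 nuclear protein-coding rows of any name. That mean was reached by 460 of the 22745 rows (2.02%), these 98 and 362 with a gene symbol. The level chose the loci, so their levels are a description. In the study, mesenchymal stem cells were isolated from inguinal fat of rats and cultured, and vesicles were purified from their culture medium in 3 batches, here replicates 1, 2 and 3. All 3 libraries belonged to 1 group, the vesicles of adipose-derived stem cells (ADSC-EV), with no parent cells, other vesicles or treated group beside it. The title places the work in premature ovarian insufficiency induced by 4-vinylcyclohexene diepoxide, but no treated sample is part of these data. The labels give no strain, sex or age, and are silent on whether each batch had its own animal or culture, so the spread between libraries may be technical.

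Names of this kind are placeholders that annotation pipelines give to gene models without an approved symbol, and some have since received a symbol. Many such models are retrocopies, which arise when a spliced mRNA is copied back into the genome: they have no introns, carry nearly the sequence of their parent gene, and are most frequent for genes with abundant mRNA such as those of ribosomal proteins. Others belong to tandem families that expanded in rodents and are known mainly from testis, such as the sperm motility kinases, the Spetex and Speer genes and the Dlg5-like genes. Extracellular vesicles carry RNA out of cells, and vesicle preparations hold fragments of many cellular transcripts.

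RefSeq promoter windows of assembly GRCr8 were used to compare some of the loci with their parent genes. They run from 250 bases before to 50 bases after an annotated gene start. Of the 98 loci, 36 had such a window by gene ID, and 17 of these, at their RefSeq place and with a parent window, were aligned with the gene they are named for. The alignment covered at least 25 bases in 5 of the 17 pairs, and in each of these it lay beyond position 200 of the locus's window, next to or after the gene start. The longest run of identical letters in each of these 5 pairs was found in 2 of the 33469 windows in the table (0.00598%), those of the locus and of its parent. The windows of LOC498555 (chr15:74046522-74046821, plus strand), named for ribosomal stalk protein P2, and of its parent Rplp2 (chr1:205975671-205975970, plus strand) are shown because they hold such a stretch, with the aligned letters in capitals, 45 of 46 identical.

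LOC498555: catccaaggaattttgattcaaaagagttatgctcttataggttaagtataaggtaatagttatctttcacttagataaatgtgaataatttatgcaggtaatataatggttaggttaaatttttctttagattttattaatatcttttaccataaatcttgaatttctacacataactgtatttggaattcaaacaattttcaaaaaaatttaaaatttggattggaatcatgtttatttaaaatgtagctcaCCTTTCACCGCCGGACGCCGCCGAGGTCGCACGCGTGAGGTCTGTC
Rplp2: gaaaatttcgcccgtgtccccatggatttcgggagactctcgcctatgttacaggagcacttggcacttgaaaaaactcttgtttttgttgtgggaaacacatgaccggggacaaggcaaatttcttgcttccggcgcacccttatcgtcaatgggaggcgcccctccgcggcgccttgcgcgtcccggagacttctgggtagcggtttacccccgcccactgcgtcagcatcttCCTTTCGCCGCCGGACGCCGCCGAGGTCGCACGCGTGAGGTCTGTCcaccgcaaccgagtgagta

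The windows of LOC100365839 (chr11:89647233-89647532, plus strand), named for small-subunit protein S3a, and of Rps3a (chr2:173826993-173827292, minus strand) matched at 50 of 51 aligned letters, again in capitals. In this pair the match started at position 250 of the locus's window but at position 196 of the parent's window.

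LOC100365839: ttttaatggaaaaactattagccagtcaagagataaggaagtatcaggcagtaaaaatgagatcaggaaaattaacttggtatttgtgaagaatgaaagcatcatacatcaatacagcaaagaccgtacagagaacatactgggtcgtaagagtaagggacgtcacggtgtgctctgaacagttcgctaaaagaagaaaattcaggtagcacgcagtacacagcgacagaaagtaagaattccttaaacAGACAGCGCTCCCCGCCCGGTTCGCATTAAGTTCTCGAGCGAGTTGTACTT
Rps3a: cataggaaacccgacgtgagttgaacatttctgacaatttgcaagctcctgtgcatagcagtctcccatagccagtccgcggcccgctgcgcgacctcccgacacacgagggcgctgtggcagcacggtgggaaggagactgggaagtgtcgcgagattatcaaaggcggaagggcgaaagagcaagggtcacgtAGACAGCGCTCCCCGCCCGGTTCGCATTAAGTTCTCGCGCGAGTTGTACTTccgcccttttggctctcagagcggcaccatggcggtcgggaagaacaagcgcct

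Among 9 windows of loci in the tandem families, 8 of 36 pairs aligned over at least 25 bases, and 2 of the 36 over at least 100 bases. The same share over pairs of unrelated windows was not computed, so the 8 pairs are not read as a sign of relation. The pair LOC685989 (chr19:24811519-24811818, plus strand, Speer4cl1 in RefSeq) and RGD1563738 (chr8:46981259-46981558, minus strand, Dlg5l17 in RefSeq) is shown because its alignment ran through nearly the whole window, upstream bases included, with 231 of 284 aligned positions identical. Capitals mark the aligned stretch. The RefSeq start of LOC685989 lay outside the range of its row's neighbouring genes, so its window rests on the gene ID alone.

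LOC685989: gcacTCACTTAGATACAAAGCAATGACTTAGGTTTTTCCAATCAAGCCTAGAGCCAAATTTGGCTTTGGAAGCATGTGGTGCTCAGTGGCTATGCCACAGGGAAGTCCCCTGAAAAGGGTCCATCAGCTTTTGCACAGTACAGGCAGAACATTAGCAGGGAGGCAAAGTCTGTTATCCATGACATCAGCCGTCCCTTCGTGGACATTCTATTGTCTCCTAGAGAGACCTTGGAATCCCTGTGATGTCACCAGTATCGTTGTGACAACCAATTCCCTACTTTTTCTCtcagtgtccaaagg
RGD1563738: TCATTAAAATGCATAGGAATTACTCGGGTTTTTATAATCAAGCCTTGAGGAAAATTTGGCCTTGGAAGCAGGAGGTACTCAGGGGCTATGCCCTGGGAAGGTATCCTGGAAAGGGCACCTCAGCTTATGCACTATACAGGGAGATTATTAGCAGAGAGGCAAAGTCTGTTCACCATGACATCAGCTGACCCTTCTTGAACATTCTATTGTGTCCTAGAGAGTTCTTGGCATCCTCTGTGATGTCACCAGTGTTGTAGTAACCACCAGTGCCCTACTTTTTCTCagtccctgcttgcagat

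The libraries held 5219920, 6786182 and 6618461 counts in replicates 1, 2 and 3. The 98 loci took 1.88%, 2.13% and 2.02% of summed FPKM, a mean of 2.01% ± 0.125 (SD, n = 3), and 2.74%, 2.22% and 2.43% of counts. All 5 mesenchymal stem cell markers (Thy1, Nt5e, Eng, Cd44 and Itgb1) were above 0, with summed levels between 35.6 and 44.2 FPKM. So were all 5 haematopoietic markers, Ptprc among them, with sums between 23.6 and 28.2 FPKM. The marker lists therefore did not set stem cell RNA apart from RNA of other cell types, and the part of other cells in the levels below was not tested. In bulk vesicle RNA, fewer vesicles that carry a transcript and less of it per vesicle cannot be told apart.

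By their descriptions, gene ontology terms and RefSeq symbols, 38 of the 98 loci were named for ribosomal proteins, 13 for another known gene, 6 for some other product and 3 for histones. A further 16 belonged to multicopy families, and 22 had no product named. Loci with ribosomal protein names were the largest group by number and by FPKM, with 0.761% ± 0.169 of summed FPKM (SD, n = 3) and a median level of 64.3 FPKM. The multicopy loci took a smaller share of FPKM, 0.372% ± 0.0949, but held 1.29% ± 0.342 of all counts, against 0.273% ± 0.0737 for the ribosomal protein loci (SD, n = 3 each). Of the 98 loci, 57 carried an Entrez gene ID. RefSeq now gives 33 of these a named symbol, and types 49 of the 57 as protein-coding and 8 as pseudogenes.

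**Figure D1:**
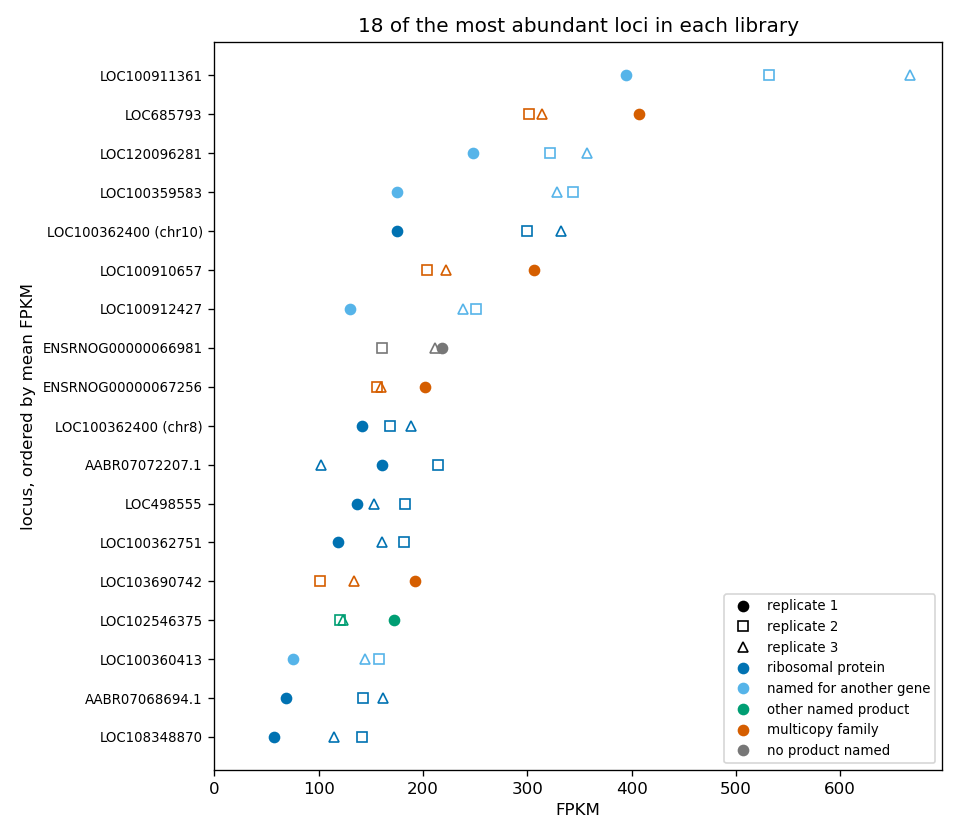
FPKM of 18 of the 20 loci with the highest means (horizontal axis; loci ordered down the page from the highest mean), with a marker for each of the 3 libraries and a colour for each annotation group. LOC100911361 stands highest at 395 to 667 FPKM, and the multicopy loci on chromosome 1 have their highest marker in replicate 1.

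In the plot of the highest loci, hnRNP A3-like loci stood at ranks 1 and 3, with a kinase-like locus described below at rank 2. LOC100911361, an hnRNP A3-like locus (mRatBN7.2 chromosome 10, 78217761 to 78218895, plus strand), had 395, 531 and 667 FPKM in replicates 1, 2 and 3. LOC120096281, a further hnRNP A3-like locus (chromosome 13, 65941100 to 65942227, minus strand), had 248, 321 and 358 FPKM. Both were lowest in replicate 1 and highest in replicate 3. hnRNP A3 binds nuclear RNA and takes part in its splicing and transport. The gene Hnrnpa3 itself, on chromosome 3, had 128, 282 and 173 FPKM, so both loci were above it in FPKM in every library. The difference was 1.49 ± 0.53 on the log2(FPKM + 1) scale for LOC100911361 and 0.73 ± 0.47 for LOC120096281 (SD, n = 3 each). In counts both were below it in every library. Hnrnpa3 had 5930, 15797 and 9713 counts, LOC100911361 3252, 5268 and 6637, and LOC120096281 2139, 3332 and 3720. Their implied lengths were 5828, 1033 and 1080 bases, and FPKM divides by this length. Reads of near-identical copies can be assigned to either place, and how the authors' counting handled them is not given in the sources used here, so such a difference is uncertain for every copy named below.

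LOC100912427 (chromosome 1, 171304774 to 171306097, Ybx1l1 in RefSeq) is named for YB-1, which binds mRNA and has been described as a sorting protein for vesicle RNA. It had 130, 250 and 238 FPKM, against 58.4, 133 and 139 FPKM for Ybx1. The locus was above its parent in all 3 libraries, by 0.94 ± 0.19 on the log2(FPKM + 1) scale (SD, n = 3). LOC100360413 (Eef1a1l1, X chromosome), named for the elongation factor that brings aminoacyl-tRNA to the ribosome, had 75.8, 158 and 144 FPKM, against 183, 397 and 381 FPKM for Eef1a1. This copy was below its parent by nearly the same amount in each library, with a difference of -1.33 ± 0.07. AABR07054368.1, which also carries a translation factor term, had 35.8, 64.5 and 85.6 FPKM.

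Chromatin proteins of the high mobility group formed a small set. LOC108349189 (Hmgb1l2, X chromosome) had 40.6, 95.5 and 83.8 FPKM and LOC120099223 (Hmgb1-ps34, X chromosome) 43.8, 80.6 and 76.9 FPKM. Both are named for HMGB1, a DNA-bending protein of chromatin, and both were lowest in replicate 1. LOC120097335 (Hmgn5b), named for a nucleosome-binding protein, averaged 93.2 ± 17.1 FPKM, against 78.5 ± 17.6 FPKM for Hmgn5 (SD, n = 3 each). In counts the locus was below Hmgn5 in every library, with 712, 1231 and 1161 against 947, 1751 and 1723. LOC120097475, named for elongin C, a subunit of ubiquitin ligases, averaged 37.5 ± 8.53 FPKM, and Eloc 6.73 ± 0.448 FPKM (SD, n = 3 each). In counts this locus was below Eloc in every library, with 118, 91 and 136 against 126, 172 and 167. The lengths implied by counts and FPKM were 341 bases for LOC120097475 and 2527 bases for Eloc. LOC100362384, named for ferritin light chain, an iron storage protein, averaged 56.6 ± 20.5 FPKM and was below Ftl1 at 112 ± 54.2 FPKM (SD, n = 3 each).

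The ribosomal protein loci ran from 31.1 to 269 FPKM. LOC100362400 names a pair of rows for large-subunit protein L13. The row on chromosome 10 had 175, 299 and 333 FPKM, and that on chromosome 8 had 142, 168 and 188 FPKM. Rpl13 had 74.3, 224 and 196 FPKM. The locus on chromosome 10 was above Rpl13 in all 3 libraries, while that on chromosome 8 was above it in replicate 1 and below it in the other two. In counts both rows were below Rpl13 in every library. The row on chromosome 10 had 286, 587 and 654 counts and that on chromosome 8 had 840, 1198 and 1349. Rpl13 had 1103, 4002 and 3505. The level of the chromosome 10 row rests on a short length, since its counts and FPKM imply 204 bases within a span of 352 bases. For Rpl13 the implied length was 1861 bases.

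The acidic stalk proteins recruit translation factors to the ribosome. LOC498555 had 136, 182 and 153 FPKM and LOC100362751 had 118, 181 and 161 FPKM, against 175, 487 and 414 FPKM for Rplp2. Both copies were below Rplp2 in every library. LOC100360522, named for stalk protein P1, had 20.3, 163 and 40.8 FPKM and the widest spread of log2(FPKM + 1) among all 98 loci. It overlaps Tifab on the opposite strand, which had 62.5, 13.2 and 83.5 FPKM, lowest in the library in which LOC100360522 was highest. At the other end, ENSRNOG00000069406 had 30.8, 35.6 and 32.7 FPKM and the narrowest spread, an SD of 0.10 on that scale.

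LOC100365839, named for small-subunit protein S3a, had 27.4, 62.0 and 60.3 FPKM and lay below Rps3a by -1.85 ± 0.04 on the log2(FPKM + 1) scale (SD, n = 3), the steadiest difference of any pair with its parent. LOC108348870, named for large-subunit protein L21, had 56.9, 141 and 115 FPKM, against 32.4, 52.0 and 48.9 FPKM for Rpl21. In counts it was below Rpl21 in every library, with 254, 759 and 618 against 697, 1348 and 1273. The implied lengths were 560 bases for LOC108348870 and 2701 bases for Rpl21. Its row was on chromosome 13, and RefSeq has the record on chromosome 1 as a pseudogene. AABR07072207.1, with a ribosomal term and no parent named, had 160, 215 and 102 FPKM, and AABR07068694.1 had 68.4, 142 and 161 FPKM. Ribosomal protein rows with uncharacterised names numbered 338, of which 38 reached 30 FPKM (11.2%), and their median was 5.54 FPKM. This compares with 64 of 92 (69.6%) and a median of 64.5 FPKM for ribosomal protein genes with symbols, and with 2.02% and a median of 4.88 FPKM for all nuclear protein-coding rows.

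The position of some loci went against their names. RefSeq and the table use different assemblies, so each row was compared by its neighbours, the 5 nearest named coding genes on each side. For 45 of the 57 loci with an Entrez ID, the RefSeq start of the record lay within the RefSeq range of these neighbours. Another 8 lay on another chromosome than the record. Among genes with symbols at 30 FPKM or more, 10 of 339 lay on another chromosome. Of the 42 loci named for a parent gene, 4 lay where RefSeq places the parent gene itself.

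LOC100359583 on chromosome 9 (87176230 to 87180333, plus strand), at 175, 344 and 329 FPKM the fourth most abundant locus, lay between Tex44 and Pde6d. RefSeq places Ptma, the gene of prothymosin alpha, a small acidic nuclear protein, within the range of this row's neighbours. It puts the record LOC100359583 (Ptmal5) on chromosome 13 as a pseudogene. The second row of that name is on chromosome 13 and had 62.3, 74.2 and 60.3 FPKM. No nuclear protein-coding row carried the symbol Ptma.

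LOC687780 (chromosome 1, 203350189 to 203351742) lay between Mrpl49 and Znhit2, and RefSeq places Fau within the range of this row's neighbours. Fau encodes a ubiquitin-like protein fused to a small-subunit ribosomal protein. The locus had 48.9, 126 and 105 FPKM and an implied length of 795 in a span of 1554 bases. The row with the symbol Fau was on chromosome 6, where RefSeq has the record of LOC687780, and had 42.1, 28.7 and 72.2 FPKM over 506 of 506 bases. For prothymosin alpha and Fau, then, the row at the place that RefSeq gives the named gene carried an uncharacterised name. LOC102551575, named for the isomerase Idi2 of isoprenoid synthesis, averaged 37.0 ± 8.59 FPKM (SD, n = 3). It lay between Gtpbp4 and Idi1, in a row of related genes, and RefSeq places Idi2 within the range of its neighbours.

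**Figure D2:**
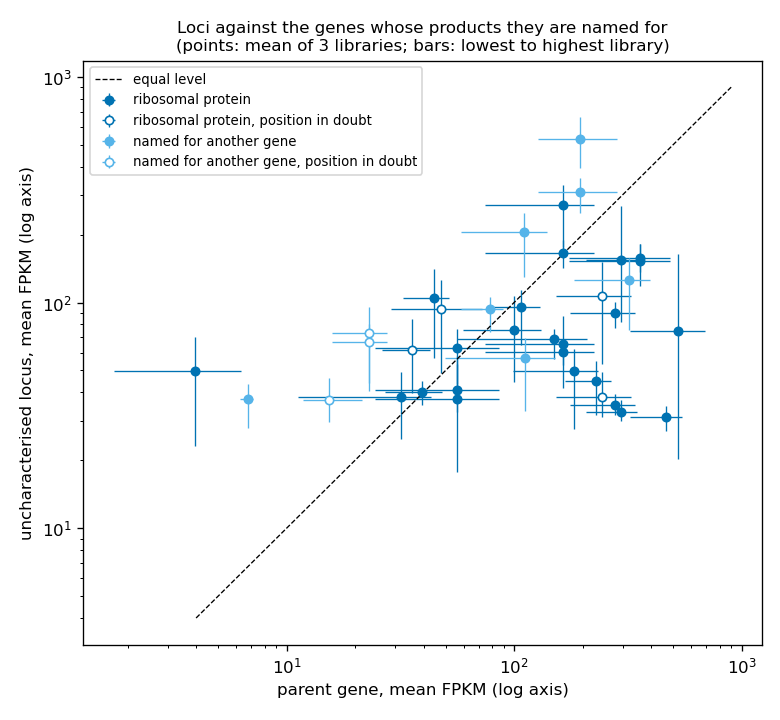
Mean FPKM of each of 38 loci (vertical log axis) against the gene it is named for (horizontal log axis), with bars from the lowest to the highest of 3 libraries. The dashed line marks equal levels. Open points mark pairs in which the locus lay at the parent's place or the parent row did not. Points lie on both sides of the line, and the hnRNP A3-like locus LOC100911361 is the highest point, at 531 FPKM.

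Parent genes were in the table for 38 of the 42 loci, 27 genes in all. The plot of loci against parents shows loci on both sides of equality: 13 were above the parent in all 3 libraries, 18 below it in all 3, and 7 mixed, with a median difference of -0.36 on the log2(FPKM + 1) scale. After leaving out the 7 pairs in which the locus lay at the parent's place or the parent row did not, 31 pairs with 22 parents gave 8 above, 16 below and 7 mixed, and a median of -0.56. FPKM divides by gene length, and 30 of the 38 loci had a shorter implied length than the parent. In CPM (counts scaled to the library total, not divided by length) the median over the 38 pairs was -1.26. Differences ran from -3.83 for RGD1562420 against Rpl19 to 3.33 for LOC108351255 against Rpl35a. The last rests on a low parent row, with 6.33, 1.75 and 3.77 FPKM from 103, 34 and 74 counts. LOC108351255 had 62, 226 and 178 counts, below that row in replicate 1 and above it in replicates 2 and 3. Its difference from Rpl35a had an SD of 1.51 between libraries. Rpl35a, Rpl21 and Ftl1 each had 2 rows with that symbol, of which the row on the RefSeq chromosome was used. Among the pairs left out were both HMGB1 copies. The row named Hmgb1 was on chromosome 16, and RefSeq has the gene on chromosome 12. Kept among the 31 pairs were LOC100362400 on chromosome 8, LOC108348870 and LOC108348980, whose own RefSeq records lie on another chromosome. The loci of the 38 pairs were lowest in replicate 1 in 32 cases and their parents in 25 of 27. This compares with 25.7% of all nuclear protein-coding rows and 95.9% of genes with symbols at 30 FPKM or more.

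**Figure D3:**
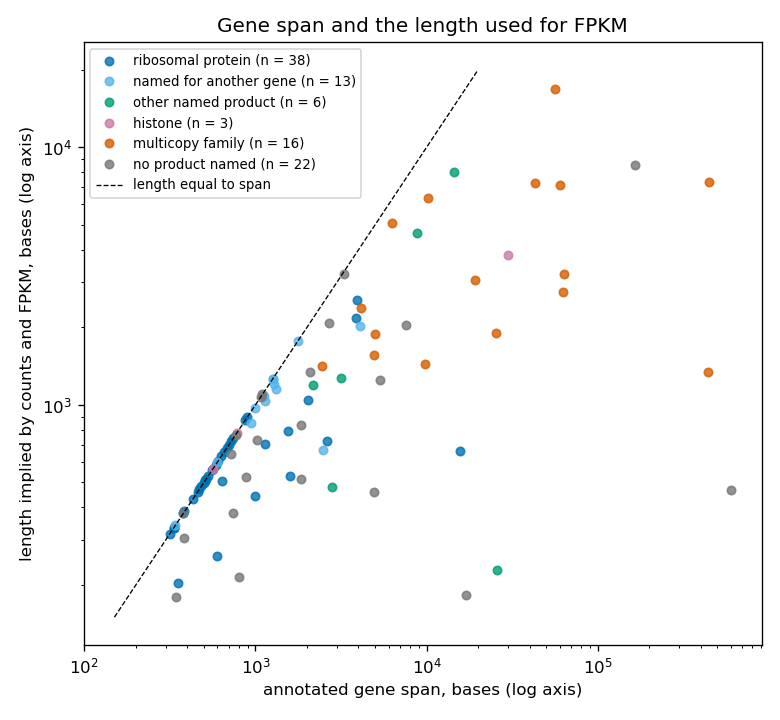
Length implied by counts and FPKM (vertical log axis, bases) against annotated gene span (horizontal log axis, bases) for the 98 loci, coloured by annotation group; the dashed line marks a length equal to the span. Many ribosomal protein points lie on the line, and the multicopy points lie below it.

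The length of the gene model enters FPKM and so bears on which loci the rule took; the counts below are a description. The plot of length against span shows that 38 of the 98 loci had an implied length within 2% of the whole span, as in a gene model with no intron, against 5.36% of all nuclear protein-coding rows. The share was 68.4% (26 of 38) for ribosomal protein loci and 38.5% (5 of 13) for loci named for other genes, against 9.67% for genes with symbols at 30 FPKM or more. It was met by 2 of 3 histone loci, 5 of 22 loci without a product, and 0 of 16 multicopy loci. Among uncharacterised loci below 30 FPKM it held for 400 of 3651. In the 31 pairs with the parent's place checked, 21 loci and 0 of 22 parents were of full span.

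Implied lengths of the multicopy gene models were at or above 2416 bases, the median of all nuclear protein-coding rows, for 9 of the 16 loci and below it for 7, and 3 loci gave 70.0% of the group's counts. LOC685793 (chromosome 1, 54985534 to 55028564, plus strand, 4930488N24Rikl in RefSeq), described as similar to a serine/threonine kinase, had 407, 302 and 314 FPKM from 23540, 21002 and 21964 counts. LOC100910657, a sperm motility kinase Y-like locus beside it (55033368 to 55039638), had 307, 204 and 222 FPKM, and ENSRNOG00000067256, with a kinase term, 202, 156 and 159 FPKM. All 3 were highest in replicate 1. Sperm motility kinases are a rodent family of protein kinases described in male germ cells. With ENSRNOG00000069390 these loci sit within chromosome 1, 54985367 to 55072301, and together had 975, 699 and 738 FPKM. ENSRNOG00000069390 overlaps LOC685793 on the same strand over 3973 bases, so both rows may share reads within this sum. Of 20 rows described as sperm motility kinases, which do not include LOC685793, 3 reached 30 FPKM (15.0%) and the median was 5.84 FPKM, against 2.02% and 4.88 FPKM over all nuclear protein-coding rows.

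A cluster on chromosome 9 (9954138 to 10683939) held 5 loci with a summed 401, 197 and 291 FPKM. Its main member, LOC103690742 (Spetex2gl1 in RefSeq), had 193, 101 and 134 FPKM from 26003, 16363 and 21810 counts. It gave the most counts of any of the 98 loci in replicate 1. Spetex genes are known from spermatids of the rat. In the same cluster LOC360998 (Spetex-2Fl1) had 47.0, 22.9 and 55.5 FPKM and LOC108351885 (Spetex2el3) had 51.4, 23.5 and 38.6 FPKM. All 3 of these Spetex-like loci were lowest in replicate 2. LOC360998 lies wholly within LOC108351885 on the same strand, over 59990 bases. Both rows may therefore share reads, in this pattern and in the cluster's sum.

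The Dlg5-like loci are partial relatives of Dlg5, which encodes a scaffold protein of cell junctions. LOC102550466 had 40.0, 49.1 and 39.8 FPKM, LOC102557419 had 59.3, 33.4 and 33.2 FPKM, and RGD1563738 had 36.9, 26.1 and 33.0 FPKM, against 6.69 ± 1.06 FPKM (SD, n = 3) for Dlg5 itself. The minimum of 30 FPKM fixed in advance that these loci stood above Dlg5. They did not share a library pattern. Of 21 Dlg5-like rows 4 reached 30 FPKM, against 2.02% of all nuclear protein-coding rows, and their median was 4.69 FPKM, against 4.88 FPKM. On chromosome 3, LOC108353098, described as like a Y-linked testis-specific protein, had 103, 70.4 and 70.5 FPKM, and the spindlin-2-like LOC100910078 averaged 46.0 ± 7.87 FPKM (SD, n = 3). Loci within 1 Mb of each other formed 11 clusters with 31 of the 98 loci, and 14 of the 16 multicopy loci lay in 5 of these. No share over all nuclear protein-coding rows is set beside these counts, so they are a description only. Overlapping rows, such as LOC360998 and LOC108351885, count as neighbours here, and the multicopy group holds tandem families.

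Among the other loci, the histone pair on chromosome 17 comprised LOC120097726 (H2ac10), at 45.9, 74.3 and 72.3 FPKM, and LOC102548682 (H4cl1), at 28.4, 48.5 and 33.9 FPKM. Both encode core histones and both were lowest in replicate 1. LOC102546375 (Zfp160l in RefSeq) had 173, 120 and 123 FPKM, highest in replicate 1. LOC288913 (C19h19orf53) averaged 68.2 ± 19.8 FPKM (SD, n = 3). The most abundant locus without a named product, ENSRNOG00000066981 (chromosome 16, 20083155 to 20248231), had 218, 161 and 211 FPKM, and an implied length of 8506 bases. ENSRNOG00000066636 had 48.0, 118 and 93.9 FPKM. It overlaps Ppial4d on the opposite strand, which had nearly the same 47.4, 116 and 92.7 FPKM. The library kit keeps the strand, but whether the counting used it is not given in the sources used here, so reads of such overlapping pairs cannot be told apart.

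Overlap with another row was found for 38 of the 98 loci (38.8%), against 23.8% of all nuclear protein-coding rows and 35.1% of genes with symbols at 30 FPKM or more. For 26 loci (26.5%) the whole locus lay inside a longer row, against 5.46% of all nuclear protein-coding rows and 4.14% of the genes with symbols. In 19 cases the longer row had a gene symbol, 5 on the same strand and 14 on the opposite strand. These hosts ran from 2.13 to 25.3 FPKM, so each of the 19 loci was above its host, an order that the minimum of 30 FPKM largely fixed. LOC100911361 lay in Car10 at 5.20 FPKM on the same strand, and LOC120096281 in Rgsl1 at 7.91 FPKM. ENSRNOG00000063301, at 42.8, 36.6 and 25.8 FPKM, overlapped the opposite strand of a 28S ribosomal RNA gene over 2520 bases, a row at 21143 FPKM.

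**Figure D4:**
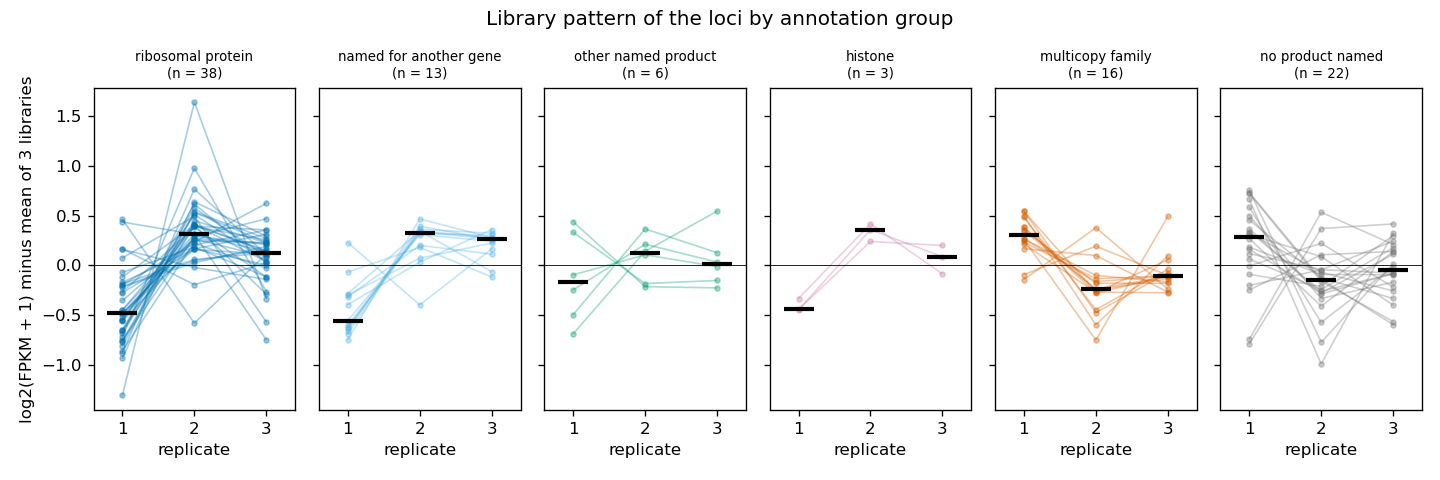
Difference of log2(FPKM + 1) in each replicate from the mean of the 3 libraries (vertical axis) for each of the 98 loci, a line per locus, in a panel per annotation group; black bars are medians. The ribosomal protein median is -0.48 in replicate 1 and the multicopy median is 0.31.

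The loci did not move together between libraries. In the plot of library patterns, replicate 1 was the lowest library for 31 of 38 ribosomal protein loci (81.6%) and 11 of 13 loci named for other genes (84.6%), against 25.7% of all nuclear protein-coding rows and 347 of 362 genes with symbols at 30 FPKM or more (95.9%). It was the lowest for 0 of 16 multicopy loci. Replicate 1 was instead the highest library for 13 of the 16 multicopy loci (81.2%) and 15 of the 22 loci without a product (68.2%), against 45.6% of all nuclear protein-coding rows. The median difference of replicate 1 from the mean was -0.48 for ribosomal protein loci, -0.55 for loci named for other genes, 0.31 for multicopy loci and 0.29 for loci without a product, against -0.53 for genes with symbols at this level and 0.08 for all nuclear protein-coding rows. Replicate 1 had the fewest counts, and the part of depth in these patterns was not tested. With counts scaled by TMM or DESeq2 size factors, the replicate 1 medians were -0.57 and -0.58 for ribosomal protein loci and 0.21 under both for multicopy loci, of which 1 was then lowest and 12 were highest in replicate 1. They were 0.19 under both for loci without a product, and 0.00754 and 0.00480 for all nuclear protein-coding rows, of which 34.4% and 34.0% were then highest in replicate 1 and 7956 and 8052 of 22745 lowest. The median SD between libraries was 0.40 over the 98 loci and 0.48 over the genes with symbols at this level; without replicate 1 it was 0.15 over the 98 loci.

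Loci picked on the mean of 2 libraries were counted in the library left out. In replicate 1, 74 of 92 picked loci reached 30 FPKM (80.4%), against 63.9% of all nuclear protein-coding genes picked in the same way. In replicate 2, 80 of 98 did so (81.6%), against 93.1%, and in replicate 3, 86 of 97 (88.7%), against 95.2%. The share of the loci was above that of all genes in replicate 1 and below it in replicates 2 and 3, differences that were not tested.

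Just inside the threshold lay AABR07043347.1 at 30.6 FPKM, AABR07002782.1 at 30.4 FPKM and the Dlg5-like LOC102547212 at 30.1 FPKM. Just outside it lay AABR07060610.1 at 29.9 FPKM, LOC103692829, named for an L9 pseudogene, at 29.6 FPKM, and LOC108350566, named for an hnRNP A2/B1 pseudogene, at 29.3 FPKM. Each of the 6 had an SD between libraries of at least 4.20 FPKM, more than the distance between the means. Counts behind a locus ranged from 44 to 26003 in a library, and 66 of the 98 loci reached 30 FPKM in every library.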

How the data were processed

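Stranded total RNA libraries (SMARTer Stranded Total RNA-Seq Pico kit, per the labels' protocols) were made from 3 batches of vesicles. The authors deposited a table of read counts per gene and FPKM values per library, with a mean FPKM column. Cutadapt 1.9, FastQC and the build mRatBN7.2 are named in the submitters' processing notes. The aligner and counter, with any strand setting and treatment of reads with several matches, were not given in the sources used here. FPKM divides by gene length and by a library total, so short gene models gain and long ones lose relative to counts.

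From these values, means, SDs (n = 3) and log2(FPKM + 1) differences were computed with Python 3.11.15, pandas 2.3.3 and numpy 2.4.6, with no filter on low values beyond the minimum mean of 30 FPKM. The length behind each FPKM value was taken from counts over FPKM, scaled on the mitochondrial coding genes. Counts were also scaled with TMM in edgeR 4.0.16 and size factors in DESeq2 1.42.0 under R 4.3.3, and that step was tested on simulated data. Promoter windows were aligned locally with Biopython 1.88 (match 2, mismatch -3, gap opening -5, gap extension -2). RefSeq tables of assembly GRCr8 gave names, neighbouring genes and promoter windows. All 57 rows with an Entrez ID matched, and 4 of these rows share their ID with another row. The samples form 1 group, so no test between groups was made, and the loci were chosen by level, so no test over them was made.

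The loci and lists were chosen with earlier results of these data known. Annotation groups, parent genes, the cluster distance of 1 Mb and the neighbour check were set after values were seen. Loci named in the text are the 20 with the highest mean, the highest 2 of each functional class, the 3 on either side of the minimum, those with the widest and narrowest spread, and their parents. Of the first 20, 2 are not reported here. Any other locus named was chosen after its values were seen. Alternatives tried were minimums of 20 and 50 FPKM, a minimum in every library, other name and biotype rules, pseudocounts of 0.1 and 5, other scalings, leaving out each library, and, added after seeing the data, leaving out clustered loci and pairs of doubtful position. Depth limits precision most for the loci with the fewest counts, from 44 in a library, and counting error comes on top of library spread.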

Additional observations from a re-analysis of the deposited data

How the results depend on the processing

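Of 83 alternative values computed, 67 stayed within the library spread or within 1.5 times the count. The sign changed for 3 median library differences: over any biotype replicate 1 gave 0.02, against -0.20, and replicate 3 gave -0.01, against 0.09, and replicate 3 gave -0.04 without replicate 1. The number of loci depended on the rule: 156 at a minimum of 20 FPKM, 48 at 50 FPKM, 52 with names starting with LOC only and 204 with any biotype, against 98. The share of summed FPKM was 2.36%, 1.52%, 1.36% and 10.7% under these 4 rules, and 1.71% with at least 30 FPKM in every library. The share of counts was 2.05% at 50 FPKM, 2.19% with the minimum in every library, 1.76% for LOC names and 18.4% for any biotype. The cause lies in the rules themselves, which take other rows. Loci overlapping another row numbered 15 on the same strand, against 38 on either. The median difference from the parent was -1.26 in CPM, which is not divided by length, against -0.36 in FPKM. It was -0.56 over the pairs with the parent's place checked, an alternative chosen after seeing the data.

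Leaving out each library gave 92 to 98 loci, 1.95% to 2.04% of FPKM, 2.28% to 2.58% of counts, and a median difference from the parent between -0.51 and -0.24. The median spread between libraries was 0.15 to 0.47, with 0.15 without replicate 1. Median library differences were -0.18 to -0.10 for replicate 1, 0.04 to 0.18 for replicate 2 and -0.04 to 0.10 for replicate 3. No paired analysis was possible because the samples form 1 group. Blast comparison of proteins, planned as a further source of parent names, was not run.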
